A study of Mus musculus with 12 samples.

Results

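The pocket proteins and the genes of the DREAM and MuvB complexes were followed across mouse embryonic fibroblasts (MEFs) of 4 genotypes. The 10 genes were Rb1, Rbl1 (p107), Rbl2 (p130), Lin9, Lin37, Lin52, Lin54, Rbbp4, Mybl2 and Foxm1, out of 18193 genes with a symbol on the array, and they were taken by the gene symbol of their probe sets in the platform annotation. A total of 25 of the 45037 probe sets tested carry 1 of these symbols alone. All 10 genes had a probe set above the background level on at least 3 arrays, and 20 of the 25 probe sets were so. RNA was hybridised to 12 Affymetrix arrays, 3 per genotype, each from 100 ng of total RNA of cells in exponential growth with no treatment. The groups were TKO-Ras MEFs, which carry the Rb1, p107 and p130 deletions together with RasG12D, TKO MEFs with the same 3 deletions, Rb1KO MEFs with a deletion of Rb1, and WT MEFs. The TKO line came from another laboratory per the study's methods, which do not say where the WT cells came from, so origin and genotype cannot be told apart. The labels do not say which Ras gene was mutated, how it was introduced, which exons are deleted, whether a line is 1 clone or how old the embryos were, and the 3 arrays of a genotype are labelled as biological replicates with no word on whether embryos or cultures were separate. The errors and p-values therefore measure the spread between these RNA samples, which may be technical.

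The pocket proteins bind E2F transcription factors and hold down the genes that these drive. Rbl1 and Rbl2 also join the MuvB core, made of the proteins of Lin9, Lin37, Lin52, Lin54 and Rbbp4, together with E2F4 or E2F5 and a DP partner to form DREAM, a repressor of cell cycle genes in resting cells. When cells enter the cycle the pocket protein leaves, and the same core binds B-Myb, the product of Mybl2, and later FoxM1 to switch on genes of mitosis.

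Values are the authors' RMA values on the log2 scale, so that 1 unit is a doubling, and differences below are log2 fold changes from limma with Benjamini-Hochberg adjustment over all 45037 probe sets, called at an adjusted p under 0.05. The number of arrays limits the precision. Background was set at 5.13, below which 95% of the 44 probe sets for olfactory receptors had their values. Array medians lay between 5.34 and 5.42, and arrays of 1 group correlated at r = 0.9904 to 0.9958 across probe sets in the knockout groups and at 0.9695 to 0.9946 in WT, where replicate 3 was least like the others. Of 13 fibroblast markers, 10 in TKO-Ras, 11 in TKO, 13 in Rb1KO and 12 in WT MEFs were above background on all 3 arrays. On the arrays labelled Rb1KO, Rbl2 was at background although the label gives a deletion of Rb1 alone, so Rb1KO here names the arrays by their label. Thy1 was at background in TKO-Ras and TKO MEFs, and Lum also in TKO-Ras MEFs. Markers of other cell types were above background on all 3 arrays of a group for 3 of 5 of epithelium in each knockout and 2 in WT, 3 of 5 of skeletal muscle in every group, 3 of 4 of neural and glial cells in every group, 1 of 4 of endothelium in every group, and 2 of 4 of blood cells in TKO-Ras and TKO and 1 in Rb1KO and WT. Of these lists, Cdh1 and Krt18 (epithelium), Myod1 and Myog (muscle), Pecam1, Cdh5 and Tek (endothelium) and Ptprc and Adgre1 (blood) were at background in every group. The part of such cells in the results was not tested.

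The bases just before the transcription start are shown for genes on either side of the result that follows, 2 that were higher in both knockouts against WT (Mybl2 and Rbbp4) and 2 that were not called (Lin37 and Lin52). Sequences are from RefSeq on GRCm38.p6, in which 7 of the 10 genes were matched (not Rb1, Lin9 and Foxm1), and each is the last 60 bases before the start, with the match to an E2F core in capitals (GGCGGGA or GGCGCGA, on either strand, so that TCCCGCC is GGCGGGA read from the other strand).
Mybl2: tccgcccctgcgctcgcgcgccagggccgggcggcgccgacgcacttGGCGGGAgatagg
Rbbp4: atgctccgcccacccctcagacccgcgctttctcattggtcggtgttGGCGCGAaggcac
Lin37: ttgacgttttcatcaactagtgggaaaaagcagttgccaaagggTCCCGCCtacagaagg
Lin52: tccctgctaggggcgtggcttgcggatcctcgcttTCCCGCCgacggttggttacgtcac
These lie at chr2:163054575-163054634 (plus strand), chr4:129335371-129335430 (minus), chr7:30559647-30559706 (minus) and chr12:84451448-84451507 (plus). The core began 13 bases before the start in Mybl2 and Rbbp4, 16 in Lin37 and 25 in Lin52. Another match lay 223 bases before the start of Lin52. The core was present in each of the genes shown, called or not, but these do not stand for all matched genes. Lin54, called higher in both knockouts, held it in 1 of its 2 promoters, 89 bases before the start and so outside the 60 bases. The call of Rbbp4 varied with probe set and processing, and a brighter probe set shared with Lin52 was not used, as given below. Among 32851 promoters of all genes, 11.7% held the core within 250 bases before the start. A CHR element, the site that LIN54 binds (TTTGAA or TTCGAA, either strand), was found within 250 bases in 17.1% of all promoters. Among these genes it was found in Rbl2, in Lin37 and in 1 of the 2 promoters of Lin54. The Lin37 promoter and that promoter of Lin54 also held an E2F core, as 0.983% of all promoters held both. None of these exact words was found in the 250 bases before Rbl1. Other forms of an E2F site were not searched for, so this does not show that Rbl1 lacks one. These are matches of letters and were not tested as binding sites.

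Among the deleted genes, Rb1 encodes the founding pocket protein. On probe set 1417850_at it read 7.45, 7.66 and 7.58 on the TKO-Ras arrays, 6.97, 7.02 and 7.43 on the TKO arrays, 7.51, 7.74 and 7.51 on the Rb1KO arrays, and 8.49, 8.70 and 8.31 on the WT arrays. Every knockout array lay below every WT array, and every array of all 4 groups lay above background. Rb1 was lower in TKO than in WT MEFs, with a difference of -1.36 ± 0.143 (standard error; adjusted p = 6.8e-05), and lower in Rb1KO than in WT MEFs, with one of -0.92 ± 0.143 (adjusted p = 7.9e-04). The signal left in cells labelled as lacking the gene was not traced to a part of the transcript, since the deleted part is not given, so a probe set outside it would check nothing. TKO against Rb1KO did not pass (-0.44, 95% confidence interval -0.76 to -0.13, adjusted p = 0.095), and passed with array weights (adjusted p = 0.027) or without TKO replicate 3, the highest TKO array (-0.59, adjusted p = 0.033). The other Rb1 probe set, 1444400_at, lay between 3.19 and 4.07 on the 12 arrays and never above background. In RNA of a whole culture, fewer cells with a transcript and less of it per cell cannot be told apart.

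Rbl1 encodes p107, a pocket protein that is itself made in proliferating cells under E2F. On 1424156_at it read 4.0, 4.99 and 4.46 on the TKO-Ras arrays, 4.79, 5.12 and 4.42 on the TKO arrays, 9.0, 8.32 and 8.89 on the Rb1KO arrays, and 8.23, 8.32 and 8.18 on the WT arrays. Both triple knockout groups were at background on every array, and Rb1KO arrays were at or above the WT range. Rbl1 was at least 8.65-fold lower in TKO than in WT (adjusted p = 5.8e-06, fitted difference -3.47) and at least 12.2-fold lower in TKO than in Rb1KO (adjusted p = 3.8e-06, fitted difference -3.96), both measured against the background level itself. Rb1KO against WT did not pass (0.49, 95% confidence interval -0.07 to 1.05, adjusted p = 0.20). On 1425166_at the pattern was the same with less range, at 3.98 to 4.44 in TKO-Ras, 4.40 to 4.73 in TKO, 6.11 to 6.35 in Rb1KO and 5.71 to 6.32 in WT MEFs, and at least 1.93-fold lower in TKO than in WT (adjusted p = 1.1e-04). The other 2 Rbl1 probe sets, 1432604_at and 1454293_at, stayed between 3.04 and 4.01 on all arrays, below background. Although 1432604_at passed in TKO-Ras against TKO (fitted 0.54, adjusted p = 0.03) and in TKO against Rb1KO (fitted -0.63, adjusted p = 0.011), both calls rest on values below background and give no fold, and the first was lost under 7 of 13 alternatives.

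Rbl2 encodes p130, the pocket protein that predominates in DREAM of resting cells. On 1425981_a_at it read 5.14, 5.35 and 4.60 on the TKO-Ras arrays, 5.37, 5.27 and 5.71 on the TKO arrays, 4.47, 3.8 and 4.27 on the Rb1KO arrays, and 7.54, 7.72 and 7.90 on the WT arrays. The lowest group was the one labelled with a deletion of Rb1 alone, whose 3 arrays all lay below background and below every TKO array. Rbl2 was lower in TKO than in WT, with a difference of -2.27 (standard error 0.217, adjusted p = 3.6e-05), and Rb1KO MEFs had at least 6.01-fold less of it than WT MEFs (adjusted p = 1.6e-06, fitted difference -3.54). TKO MEFs had at least 1.25-fold more of it than Rb1KO MEFs (adjusted p = 0.0041, fitted difference 1.27), a bound that is lost at a background of 5.82 (the 99th percentile), where both groups are at background. The second Rbl2 probe set, 1418146_a_at, was at background on all 9 knockout arrays (3.83 to 4.64) and between 5.73 and 6.16 on the WT arrays, at least 1.77-fold lower in TKO and at least 1.77-fold lower in Rb1KO, each against WT. By both probe sets the arrays labelled Rb1KO had Rbl2 at background and Rb1 below WT, with Rbl1 present, and each comparison with Rb1KO is one with cells of that pattern. Whether Rbl2 is deleted or transcribed less in these cells was not tested.

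**Figure D1:**
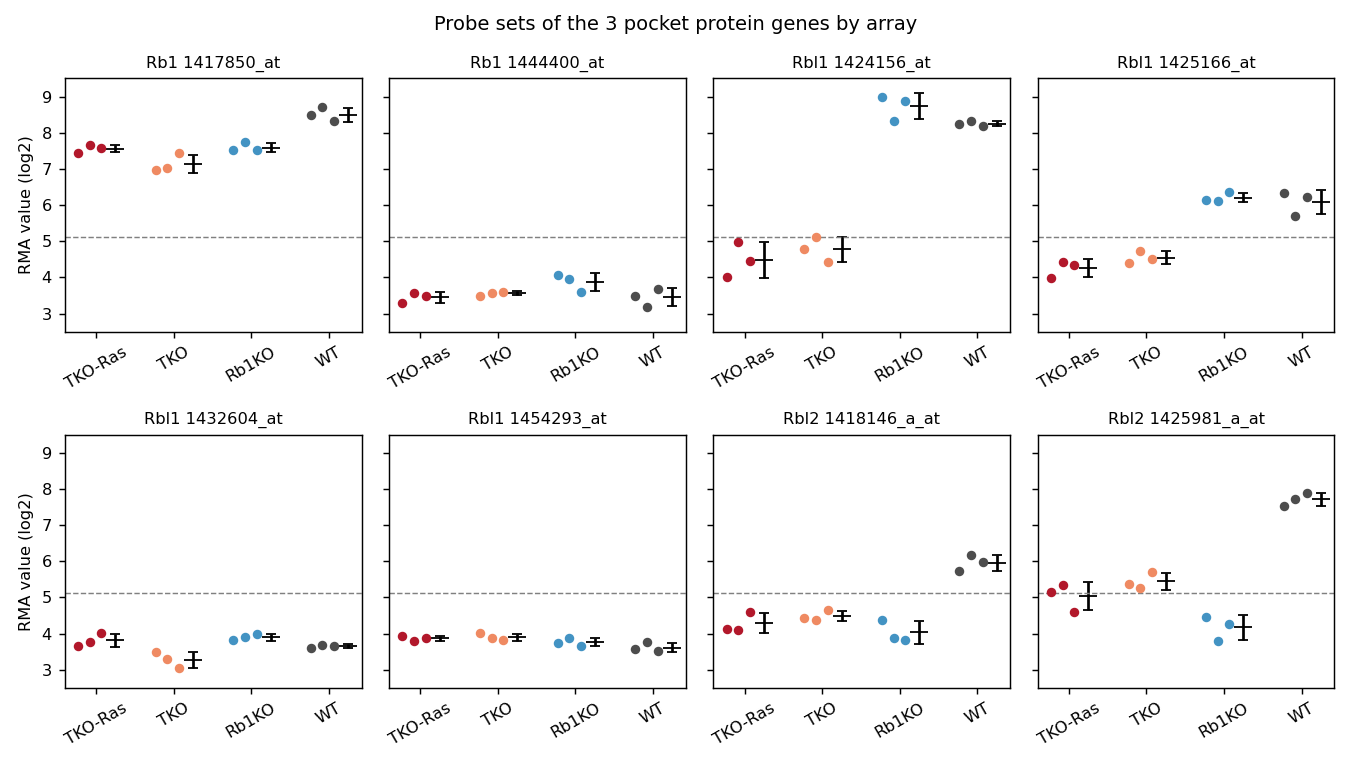
RMA values (log2) of the 8 probe sets of Rb1, Rbl1 and Rbl2 on each array of TKO-Ras, TKO, Rb1KO and WT MEFs, with each array as a point next to its group's mean and SD (3 arrays), and background, 5.13, drawn dashed. Rb1 1417850_at stays above the line in every group, Rbl1 1424156_at is below it on every TKO-Ras and TKO array, and Rbl2 1425981_a_at is lowest, at 3.8 to 4.47, on the Rb1KO arrays.

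The comparison of TKO with WT MEFs asks what happens to the rest of the machinery when all pocket proteins are deleted. Of the 7 genes that were not deleted, 5 were higher in TKO MEFs, none was lower and 2 did not pass, with a median log2 fold change of 0.78 against 0.03 over all probe sets. Over all 45037 probe sets, 10.5% were called higher and 9.01% lower. The 5 higher genes were Mybl2, Lin9, Lin54, Foxm1 and Rbbp4, and the 2 that did not pass were Lin37 and Lin52. The 3 deleted genes, read from their probe sets with the highest mean, were called lower, which is not counted as a result. Nor can it check the labels, since the deleted parts are not given. Rbl2 1425981_a_at fell further in Rb1KO (-3.54), not labelled as lacking it, than in TKO (-2.27), each against WT.

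Mybl2, whose product B-Myb turns the MuvB core into an activator, had the largest change of the 7 on its brightest probe set. It read 7.91, 7.53 and 7.61 on the TKO-Ras arrays, 7.60, 7.35 and 7.53 on the TKO arrays, 7.83, 7.55 and 7.59 on the Rb1KO arrays, and 6.35, 5.79 and 5.03 on the WT arrays. No knockout array overlapped a WT array, and WT replicate 3 lay below background. The share of all probe sets without such overlap was not counted, so how unusual it is cannot be said, here or for the genes below. Mybl2 was 3.42-fold higher in TKO than in WT (1.77 ± 0.259, standard error, on the log2 scale; adjusted p = 6.3e-04), and the difference was 1.43 without WT replicate 3 (adjusted p = 1.6e-04) and 2.09 without WT replicate 1. On its other probe set, 1454946_at, the difference was 0.98 (adjusted p = 0.053) and did not pass, with values of 6.87 to 7.08 in TKO and 5.68 to 6.57 in WT MEFs.

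Foxm1 encodes the forkhead factor that joins MuvB late in the cycle. On 1448833_at it read 7.85, 7.84 and 7.93 on the TKO-Ras arrays, 7.80, 7.97 and 7.96 on the TKO arrays, 7.99, 7.92 and 7.92 on the Rb1KO arrays, and 7.16, 7.22 and 6.99 on the WT arrays. The 9 knockout arrays fell within 7.80 to 7.99 and did not overlap WT. Foxm1 was higher in TKO than in WT by 0.78 (standard error 0.0923, adjusted p = 1.4e-04), or 1.72-fold. The size depended on the probe set, with 1.09 on 1417748_x_at and 1.54 on 1448834_at, both called, and 0.15 on 1437138_at, which was at background on all arrays. A probe set that is annotated to Foxm1 and other genes, 1453107_s_at, was not used.

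Of the 5 genes of the MuvB core, 3 were higher in TKO than in WT and 2 were not called, with a median of 0.39. Over all probe sets, 10.5% were called higher and 9.01% lower, with a median of 0.03. The call of Rbbp4, 1 of the 3, was lost under some alternatives, as given below. Lin9, which encodes a scaffold of the core, read 8.96, 8.92 and 9.12 on the TKO-Ras arrays, 9.10, 9.01 and 8.81 on the TKO arrays, 9.10, 9.44 and 9.15 on the Rb1KO arrays, and 7.94, 7.75 and 7.50 on the WT arrays. All knockout arrays were above all WT arrays, and the difference between TKO and WT was 1.25 (standard error 0.138, adjusted p = 9.4e-05), or 2.37-fold. The second Lin9 probe set, 1443984_at, gave 1.24 (adjusted p = 0.0011). Lin54, the subunit that binds CHR elements in DNA, read 9.45, 9.62 and 9.79 on the TKO-Ras arrays, 9.49, 9.80 and 9.82 on the TKO arrays, 10, 9.95 and 9.91 on the Rb1KO arrays, and 9.03, 8.80 and 8.36 on the WT arrays. Again the knockouts stood above WT without overlap, by 0.97 in TKO (standard error 0.163, adjusted p = 0.0015), with 0.67 on the dimmer 1458582_at (adjusted p = 0.015).

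Rbbp4 encodes a histone-binding WD40 protein that also serves other chromatin complexes. On 1434892_x_at it read 13.49, 13.37 and 13.38 on the TKO-Ras arrays, 13.14, 13.05 and 13.28 on the TKO arrays, 13.26, 13.20 and 13.33 on the Rb1KO arrays, and 12.78, 12.70 and 12.81 on the WT arrays. The difference between TKO and WT was small against the other called genes, 0.39 (standard error 0.091, adjusted p = 0.010) or 1.31-fold, though no arrays overlapped. The call was lost with only the TKO and WT arrays in the fit (adjusted p = 0.052) and with cyclic loess between arrays (0.26, adjusted p = 0.078). Its probe sets disagreed: 1454791_a_at and 1454875_a_at gave 0.47 and 0.52, both called, whereas 1456260_at read 5.83, 5.72 and 7.04 on the TKO arrays and 7.18, 7.10 and 7.05 on the WT arrays, a difference of -0.91 that did not pass (adjusted p = 0.16). The suffix of the first 3 marks probes that also match other transcripts of the gene (_a) or other genes (_x), and 1456260_at carries no such suffix.

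Lin37, a subunit required for repression by DREAM, read 7.16, 6.88 and 6.79 on the TKO-Ras arrays, 7.10, 6.88 and 6.94 on the TKO arrays, 6.83, 6.54 and 6.5 on the Rb1KO arrays, and 6.82, 6.64 and 6.85 on the WT arrays. The TKO arrays lay just above the WT arrays, with a difference of 0.20 that did not pass (95% confidence interval -0.08 to 0.48, adjusted p = 0.34). Lin52, the subunit that contacts the pocket protein once DYRK1A has phosphorylated it, read 5.95, 5.96 and 6.02 on the TKO-Ras arrays, 5.95, 5.94 and 5.77 on the TKO arrays, 5.99, 5.99 and 5.90 on the Rb1KO arrays, and 5.94, 5.76 and 6.02 on the WT arrays. These 12 values spanned 5.76 to 6.02, and the difference between TKO and WT was -0.02 (95% confidence interval -0.23 to 0.19, adjusted p = 0.92). Its other probe set, 1447482_at, was at background in every group. A brighter probe set, 1434161_at, is annotated to both Gm7020 and Lin52 and was not used for the gene, and it read 7.78 to 8.0 in TKO and 7.06 to 7.60 in WT MEFs.

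**Figure D2:**
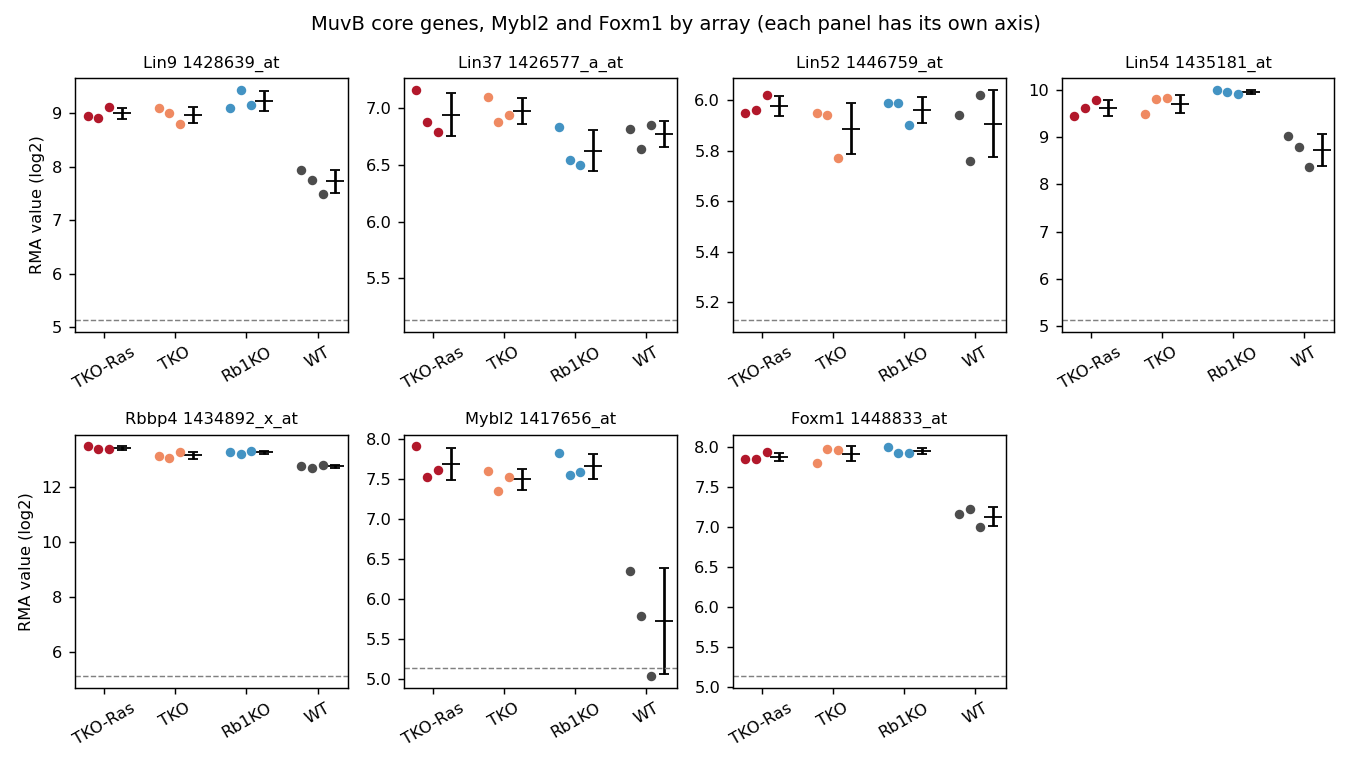
RMA values (log2) of Lin9, Lin37, Lin52, Lin54, Rbbp4, Mybl2 and Foxm1 on each array of TKO-Ras, TKO, Rb1KO and WT MEFs, each gene by its brightest probe set and on its own axis, with each array as a point next to its group's mean and SD (3 arrays), and background, 5.13, drawn dashed. Knockout and WT arrays do not overlap for Lin9, Lin54, Rbbp4, Mybl2 and Foxm1, while the Lin52 arrays of all groups lie between 5.76 and 6.02. The share of all probe sets without overlap was not counted.

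The same 5 genes were higher, and the same 2 did not pass, in Rb1KO against WT MEFs, where 12.5% of all probe sets were called higher and 10.1% lower. The median of the 7 genes was 0.82, against 0.07 over all probe sets. This comparison shares its WT arrays with the one above, so the values are given side by side and are not independent. Log2 fold changes in Rb1KO and in TKO, each against WT, were 1.94 and 1.77 for Mybl2, 1.5 and 1.25 for Lin9, 1.22 and 0.97 for Lin54, 0.82 and 0.78 for Foxm1, and 0.50 and 0.39 for Rbbp4. Adjusted p-values in Rb1KO were 2.8e-04 for Mybl2, 2.2e-05 for Lin9, 2.8e-04 for Lin54, 8.6e-05 for Foxm1 and 0.0022 for Rbbp4. The Rbbp4 call was lost with the mean of its probe sets (0.36, adjusted p = 0.10), and 1456260_at ran the other way, at -0.28 (adjusted p = 0.68). Both Mybl2 probe sets passed here, with 1.28 on 1454946_at (adjusted p = 0.014). Lin37 had a difference of -0.15 (95% confidence interval -0.43 to 0.14, adjusted p = 0.47) and Lin52 one of 0.05 (-0.16 to 0.26, adjusted p = 0.75). Counted over all 25 probe sets of the 10 genes, 12 were called higher and 3 lower in Rb1KO, and 11 higher and 5 lower in TKO.

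**Figure D3:**
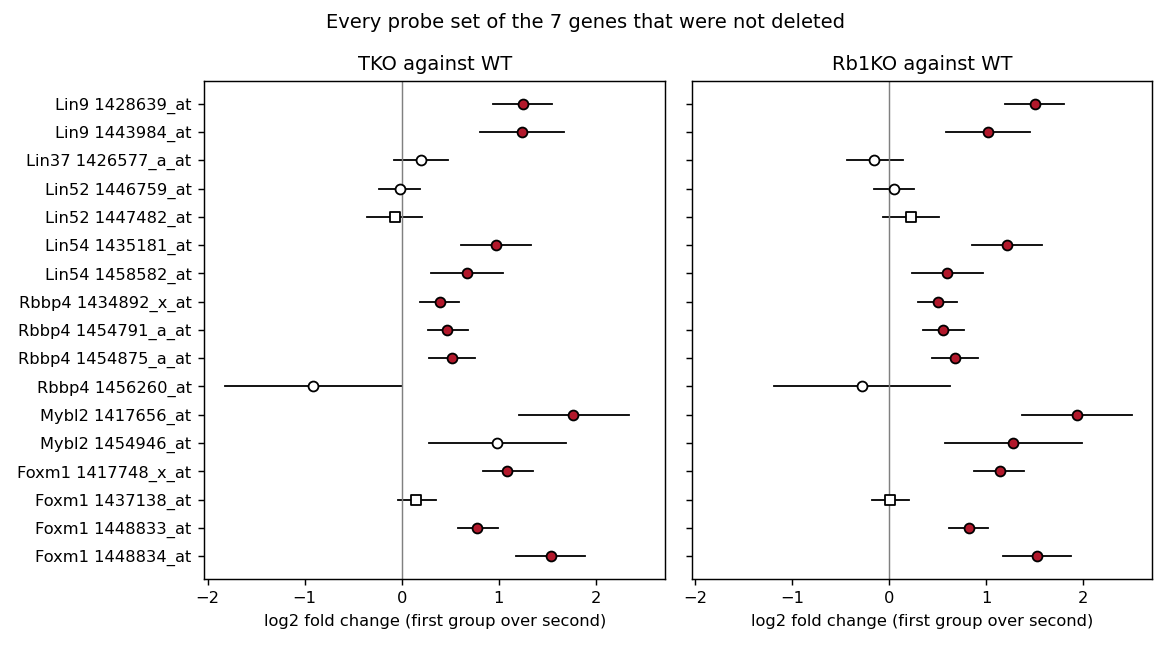
Log2 fold change (first group over second, horizontal axis) with its 95% confidence interval for every probe set of the 7 genes that were not deleted, TKO against WT on the left and Rb1KO against WT on the right. Filled points passed an adjusted p under 0.05, open points did not, and squares mark probe sets at background in both groups. Of the 4 Rbbp4 probe sets, 1456260_at alone lies below 0, at -0.91 in TKO against WT.

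The direct comparison of TKO with Rb1KO asks what differs between cells that lack all 3 pocket proteins and the cells labelled as lacking Rb1. None of the 7 genes passed in either direction by limma, where 4.19% of all probe sets were called higher and 2.99% lower, and Lin37 was the 1 gene with an unadjusted p under 0.05. The differences were -0.16 for Mybl2 (95% confidence interval -0.73 to 0.40), -0.04 for Foxm1 (-0.24 to 0.17), -0.26 for Lin9 (-0.56 to 0.05), -0.25 for Lin54 (-0.61 to 0.11), -0.10 for Rbbp4 (-0.30 to 0.10) and -0.07 for Lin52 (-0.28 to 0.14). The interval was widest for Mybl2, and none of them shows that the knockouts act alike. Lin37 had the largest of them, 0.35 (0.06 to 0.63, adjusted p = 0.15), with 6.88 to 7.10 in TKO and 6.5 to 6.83 in Rb1KO MEFs, which do not overlap. The genes that passed were 2 of the pocket proteins, Rbl1 lower and Rbl2 higher in TKO than in Rb1KO, as given above.

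By their labels, TKO-Ras and TKO MEFs differ by the mutated Ras. How it was introduced and whether a line is 1 clone are not given, so mutation and line cannot be told apart. In this comparison 2.54% of all probe sets were called higher and 3.13% lower. None of the 10 genes, each read from its brightest probe set, passed in either direction by limma, and 2 of them had an unadjusted p under 0.05 (Rb1 and Rbbp4). Lin9, Lin37, Lin52, Lin54, Mybl2 and Foxm1 had differences between -0.08 (Lin54) and 0.19 (Mybl2), each with an interval that included 0. Rbbp4 had a difference of 0.26 (95% confidence interval 0.06 to 0.46, adjusted p = 0.14), with TKO-Ras arrays at 13.37 to 13.49 and TKO arrays at 13.05 to 13.28, which do not overlap, and Rb1 one of 0.42 (0.11 to 0.74, adjusted p = 0.12), which passed with array weights (adjusted p = 0.044). The 2 Mybl2 probe sets parted, at 0.19 on 1417656_at (adjusted p = 0.76) and -0.79 on 1454946_at (adjusted p = 0.21), where the TKO-Ras arrays read 6.5, 5.38 and 6.69 and the TKO arrays 6.99, 6.87 and 7.08.

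**Figure D4:**
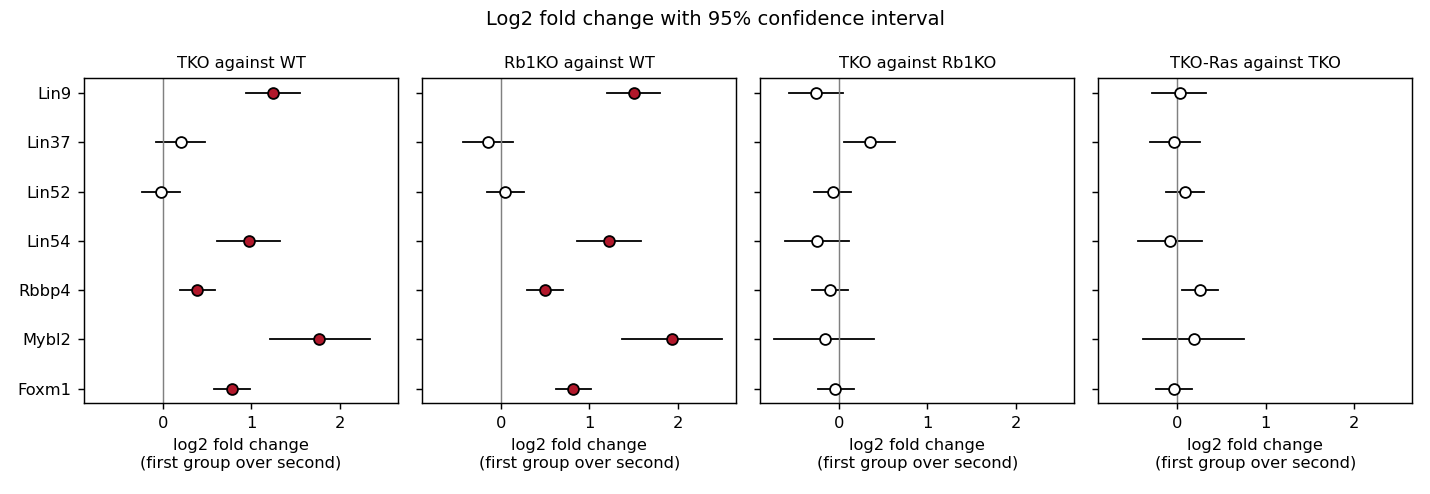
Log2 fold change (horizontal axis, first group over second) with its 95% confidence interval for 7 genes in the 4 comparisons, each gene by its brightest probe set, where a filled point passed an adjusted p of 0.05 and an open one did not. The first 2 panels have filled points for Lin9, Lin54, Rbbp4, Mybl2 and Foxm1, and the other 2 panels, of TKO over Rb1KO and of TKO-Ras over TKO, have none.

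The partners that complete DREAM are E2F4, E2F5 and their DP subunits, and DYRK1A is the kinase of LIN52. Of these 5 genes, 1 was higher and none lower in TKO against WT, and 3 were higher and none lower in Rb1KO against WT, where 10.5% and 12.5% of all probe sets were called higher. Without WT replicate 3 the count in Rb1KO was 2, and Dyrk1a stood at the threshold there (0.46, adjusted p = 0.05). Tfdp1, a DP subunit, read 11.38, 11.41 and 11.27 on the TKO arrays and 10.79, 10.66 and 10.18 on the WT arrays, a difference of 0.81 (adjusted p = 0.002). E2f5 was lower in TKO than in Rb1KO, with a difference of -0.88 (adjusted p = 0.0093), with 8.56, 8.33 and 7.99 on the TKO arrays and 8.91, 9.54 and 9.07 on the Rb1KO arrays, while E2f4 had differences of 0.12 in TKO and 0.20 in Rb1KO against WT that did not pass. Of the paralogs Rbbp7, Mybl1 and Myb none was called in TKO against WT (none had an unadjusted p under 0.05 either) and 2 were higher in Rb1KO against WT (1 without WT replicate 3), Rbbp7 by 0.29 and Myb, which was at background in both groups. Among 8 cyclins and kinases that phosphorylate pocket proteins, 2 were higher and 2 lower in TKO against WT (10.5% and 9.01% of all probe sets), and likewise 2 and 2 in Rb1KO against WT. Without WT replicate 3, 3 were lower in TKO and 3 higher in Rb1KO. In TKO against WT, Ccne2 was higher by 1.36 and Cdk2 by 0.56, and Ccnd2 had a difference of -2.92 (adjusted p = 2.0e-04) and Ccnd3 one of -1.54 (adjusted p = 0.0018). WT replicate 3 enlarged the differences of Ccne2 (7.58, against 9.06 and 9.02 on the other WT arrays) and Ccnd3 (10.38, against 9.45 and 9.26). For Ccnd2 that array went the other way (12.78, against 13.49 and 13.57). Ccnd2 was further below WT in Rb1KO (-5.50), so that TKO was above Rb1KO by 2.58 (adjusted p = 0.0011), the 1 call of the list in that comparison. In TKO-Ras against TKO, Ccnd1 was higher by 1.67 (adjusted p = 0.016) and Ccnd2 lower, with a difference of -1.63 (adjusted p = 0.023).

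The targets of these complexes were counted from lists that were drawn up with earlier results of these data known, so the counts are a description. Over all probe sets, 10.5% were called higher and 9.01% lower in TKO against WT, and 12.5% and 10.1% in Rb1KO against WT. The shares were 4.19% and 2.99% in TKO against Rb1KO, and 2.54% and 3.13% in TKO-Ras against TKO. Of 28 genes of mitosis that B-Myb-MuvB and FoxM1 are known to drive, 27 had a probe set of their own, and 25 were higher and none lower in TKO against WT, with a median of 1.02 against 0.03 over all probe sets. Aurkb, a mitotic kinase, was higher by 2.11 (adjusted p = 3.6e-06), Birc5, which encodes survivin, by 1.75 and Ttk, a kinase of the spindle checkpoint, by 1.69. In Rb1KO against WT 26 were higher and none lower, and in TKO-Ras against TKO none was called by limma in either direction, with 3 of the 27 at an unadjusted p under 0.05. In TKO against Rb1KO 1 was called higher (Ccnb2, by 0.85, adjusted p = 0.017) and none lower, but the median of the list was -0.19, against -0.04 over all probe sets. There 9 of the 27 had an unadjusted p under 0.05, and 8 of these 9 had negative differences, from -0.61 for Aurka (adjusted p = 0.096) to -0.32 for Bub1b (adjusted p = 0.21). The share of all probe sets with such a p was not counted, and genes read on the same arrays are not separate observations. Of 24 genes of the G1/S transition that DREAM holds down through E2F sites, 22 had such a probe set, and 21 were higher and none lower in TKO against WT, with the same counts in Rb1KO against WT. Their median was 1.67 in TKO and 1.62 in Rb1KO, and differences in TKO reached 2.85 for Cdc6, which licenses replication origins, 2.41 for Gins1 of the replicative helicase and 2.23 for Tk1, a thymidine kinase. In TKO against Rb1KO none of the 22 was called by limma, with 2 at an unadjusted p under 0.05, and in TKO-Ras against TKO 1 was lower, the thymidylate synthase gene Tyms (-0.87, adjusted p = 0.03).

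The pattern of Mybl2 over the 12 arrays was most like those of Ccna2 (r = 0.9878), Mcm10 (0.9876) and Mrpl12 (0.9871), out of 12741 genes with a group mean above background. For Foxm1 the most like were Aurkb (r = 0.9895), Pcna (0.9886) and Cenpu (0.9868). These Pearson correlations are a description of arrays that share the 4 groups.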

How the data were processed

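RNA of the 4 groups was labelled with the 3' IVT Express kit and hybridised to MOE430 2.0 arrays. The deposited log2 values, 1 per probe set and array, were made by the authors with RMA in Partek 6.5. The sources do not name the log scale, which was read from the range of 2.18 to 14.92. No filter and no genome build is given in the sources used here. The 64 control probe sets were left out, leaving 45037, of which 34945 carry 1 symbol, 932 several and 9160 none, and 34741 of those with 1 symbol were matched to RefSeq by gene number. All 12 arrays entered 1 fit in limma 3.58.1 (R 4.3.3, lmFit and eBayes, 8 residual degrees of freedom) with 4 contrasts, 2-sided. Rb1, Rbl1 and Rbl2 are given by every probe set, other genes by the probe set with the highest mean. A fold against a group at or below 5.13 on all 3 arrays is a lower bound computed against that level. The fit was tested on simulated data. Of the lists, up to 3 called genes with the largest change in each direction in TKO against WT are named, and genes outside this rule were named after their values were seen. For Mybl2 and Foxm1, the 3 genes of highest correlation are named. The members and lists were chosen with earlier results of these data known. Deviations of same-numbered arrays of 2 groups from their group means correlated at -0.207 to 0.311, over 0.1 in 8 of 18 pairs. This does not settle whether same-numbered arrays were processed together. The fit did not take the numbers as pairs, and one with a replicate block is given below. Alternatives concerned moderation, weights, normalization, filter, probe set, block and single arrays. Figures used Python 3.11.15 and matplotlib 3.10.9.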

Additional observations from a re-analysis of the deposited data

How the results depend on the processing

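The alternatives were followed for every probe set of Rb1, Rbl1 and Rbl2 and for the brightest probe set of each other gene. Of 23 called differences among these, 19 kept direction and call under all alternatives run. The others were Rbbp4 in both comparisons with WT, and Rbl1 1432604_at, which is below background, in TKO against Rb1KO and in TKO-Ras against TKO. For Rbbp4 the probe set without a suffix turned the sign, to -0.91 in TKO and -0.28 in Rb1KO against WT, and with the mean of its probe sets neither passed (0.12 and 0.36). Lin37 has no probe set without a suffix. Cyclic loess moved the balance over all probe sets to 3988 higher and 4761 lower in TKO against WT (4725 and 4060 as reported) and to 4271 and 5596 in Rb1KO against WT (5646 and 4537).

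Of the 10 genes, 8 passed in TKO and 7 in Rb1KO against WT, 2 in TKO against Rb1KO and 0 in TKO-Ras against TKO. Of the 7 not deleted, 5, 5, 0 and 0 passed, and of all 45037 probe sets 8785, 10183, 3231 and 2553. With the replicate block the 10 genes gave 8, 7, 2 and 0 and all probe sets 8819, 10107, 3146 and 2452, none changed by over 1.5 times. The block ended the call of Rbl1 1432604_at in TKO-Ras against TKO (0.54, adjusted p = 0.057). Array weights called 1 gene and 4431 probe sets in TKO-Ras against TKO, and 5512 probe sets in TKO against Rb1KO. Leaving out 1 array gave 1339 to 2210 probe sets in TKO-Ras against TKO and 2077 to 2533 in TKO against Rb1KO, each lowest without TKO replicate 2. The fall exceeded 1.5 times also without TKO replicate 3 (1533), TKO-Ras replicate 1 (1487) or TKO-Ras replicate 3 (1495) in TKO-Ras against TKO, and without Rb1KO replicate 3 (2094) in TKO against Rb1KO. The cause was not tested.

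The other differences that changed sign were all uncalled. In TKO against Rb1KO, Foxm1 was 0.00 with arrays centred on their median and 0.02 with the mean of its probe sets (-0.07 to 0.02 with 1 array left out). In TKO-Ras against TKO, the mean of all probe sets gave 0.08 for Foxm1, -0.14 for Lin9 and -0.30 for Mybl2, and centring gave -0.01 for Lin9. Lin52 was 0.03 in TKO against WT with centring and -0.01 in Rb1KO against WT with cyclic loess. With 1 array left out, Lin52 ran from -0.09 to 0.04 in TKO and from -0.02 to 0.11 in Rb1KO against WT, Rb1 1444400_at from -0.02 to 0.22 in TKO against WT and Rbl1 1425166_at from -0.06 to 0.24 in Rb1KO against WT. In TKO-Ras against TKO such ranges were -0.14 to 0.05 for Lin37, -0.19 to 0.00 for Lin54, -0.06 to 0.09 for Lin9 and -0.07 to 0.02 for Rbl1 1454293_at.

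The background level set the bounds. At the 99th percentile (5.82), Rbl1 1424156_at was at least 5.38-fold lower in TKO than in WT and Rbl2 1425981_a_at at least 3.74-fold lower in Rb1KO than in WT. The bounds of Rbl2 1418146_a_at fell to 1.1-fold in both comparisons with WT (1.77 as reported), that of Rbl1 1425166_at in TKO against WT to 1.2-fold (1.93 as reported), and Rbl2 1425981_a_at had none in TKO against Rb1KO (1.25 as reported), as both groups were then at background. At the median (3.84) none of these knockout groups was at background on all arrays, and no such bound could be given. After the data were seen, the lists were counted without WT replicate 3. Of 27 mitotic genes, this left 24 and 26 higher in TKO and in Rb1KO against WT. Of 22 G1/S genes it left 21 and 21, and of 5 DREAM partners 1 and 2. In that fit 9436 and 10759 of all probe sets were called in either direction (8785 and 10183 as reported). These totals were not split by direction, so no share called higher can stand beside the counts.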
